A study of Drosophila melanogaster with 4 samples.

Results

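Broad Groucho peaks are the sites of the deposited peak list that are wider than 2000 bp and lie on the chromosome arms 2L, 2R, 3L, 3R or 4 of Drosophila melanogaster. They were chosen by their called width, a measured value. This rule gave 247 of the 9730 peaks on those 5 arms (2.54%), from a list of 11165 peaks in all. They are set against the 9483 narrower peaks of the same arms. The series used ChIP-seq, the sequencing of DNA recovered with an antibody from crosslinked chromatin, with 2 Groucho ChIP libraries and 2 input DNA libraries. All 4 came from white prepupae, the stage at which larval life ends and metamorphosis begins, with no tissue or treatment named. Both kinds of library had the strain called Y cn bw sp. Its listed alleles are y[1] and oc[R3.2], then on the next chromosome cn[1], bw[1] and sp[1] together with Gr22b[1], Gr22d[1] and CG33964[R4.2], and last lab[R4.2], Rh6[1], LysC[1], GstD5[1] and MstProx[1]. The antibody was a rabbit polyclonal serum raised to a Groucho peptide. The design asks where Groucho is enriched over input.

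Groucho is a co-repressor without DNA binding of its own. Sequence-specific repressors such as Hairy and the Hairy-related proteins of the Enhancer of split complex, which act downstream of Notch, bring it to enhancers and promoters. It recruits histone deacetylases and forms oligomers through its amino-terminal domain, and studies in embryos have discussed both discrete binding and spreading along chromatin from a site of recruitment. The width of a called region is therefore a quantity of interest for this protein.

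The peak list holds a position and a caller score for each peak and no value for a single library. No spread between replicates could be computed, the read depth is unknown, and no difference below was tested. Percentages carry exact binomial 95% intervals and medians carry 95% intervals from binomial order statistics. These intervals cover counting error only, and peaks that lie in groups are not independent, so the intervals are too narrow. Width chose the members, and the score comes from the same calling of ChIP against input. Both are given as descriptions.

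Broad peaks were mostly just over the threshold, with a short tail of very wide regions. Their median width was 2436 bp (quartiles 2187.5 and 3066.5 bp), against 446 bp (301 and 706 bp) for narrower peaks. Of the 247, 129 were at most 2.5 kb wide, 53 were over 2.5 and up to 3 kb, 43 over 3 and up to 4 kb, 14 over 4 and up to 5 kb, and 8 were wider. The threshold cuts through a continuous range of widths. The 5 narrowest members were 2009, 2013, 2018, 2020 and 2024 bp wide and scored 48.41, 90.04, 106.52, 81.78 and 43.04. The 5 widest peaks left out were 1999, 1998, 1997, 1996 and 1993 bp wide and scored 38.81, 53.49, 93.29, 119.62 and 110.06. Members and non-members next to the threshold thus overlapped in score.

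Although few, broad peaks held a sizeable part of the bases called as bound. They covered 686.2 kb of the 6.03 Mb in peaks on the 5 arms, or 11.4% of covered bases from 2.54% of the peaks. Peaks over 1 and up to 2 kb wide, 11.8% of those on these arms, held 25.6% of covered bases, and those of up to 500 bp, 55.2% of them, held 29.1%. In relation to the length of the arms, each measured up to its last peak, broad peaks covered 0.707%, whereas all peaks covered 6.21%.

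Scores of broad peaks ranged from 22.15 to 614.92, with a median of 114.9 (interval 102.9 to 135.0), against a median of 17.7 (17.4 to 18) for narrower peaks. A score above 100 was given to 144 of the 247 broad peaks (58.3%), to 5.43% of narrower peaks, to 26.6% of those over 1 and up to 2 kb (below, peaks of 1 to 2 kb) and to 6.77% of all peaks of the 5 arms. Width and a high score overlapped as choices of sites but did not give the same set. Of the 247 peaks with the highest scores on these arms, 79 were broad (32%), against 2.54% of all peaks there. In all, 414 narrower peaks scored at or above the broad median, a count that includes the narrower ones among those 247. At the other end, 8 broad peaks scored no more than the upper quartile of narrower peaks, 34.1. Divided by width, the score was alike: the median was 43.9 per kb for broad peaks (interval 40.9 to 48.7) and 43.8 per kb for narrower peaks (43.3 to 44.2).

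**Figure D1:**
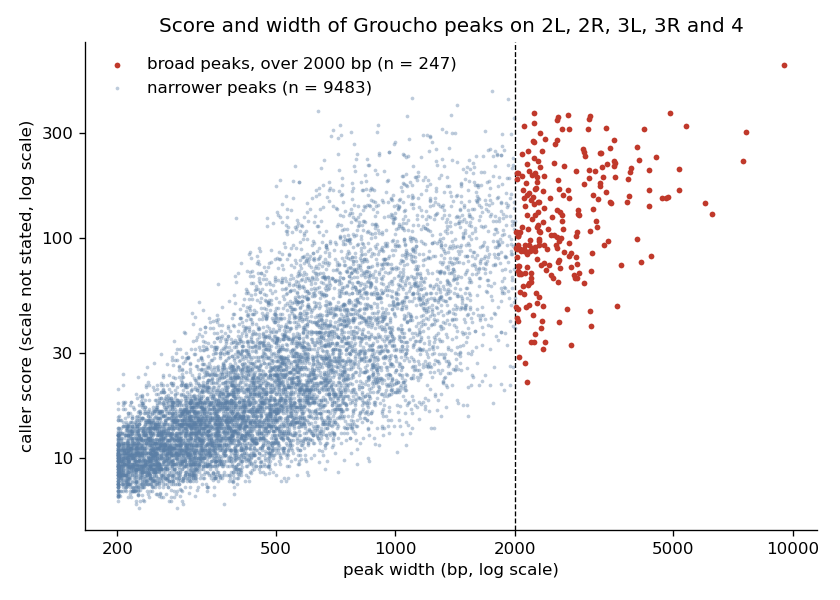
Each point is a peak on 2L, 2R, 3L, 3R or 4, with its width in bp on the x axis and its caller score on the y axis, both on log scales. The dashed line is the 2000 bp threshold. The 247 broad peaks lie to its right, with scores between 22.15 and 614.92, and the score ranges of broad and narrower peaks overlap widely.

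Within the broad set, the score grew with width up to 4 kb more clearly than beyond. The median score was 93.3 up to 2.5 kb (interval 88.8 to 106.6), 106.0 over 2.5 and up to 3 kb (89.8 to 134.2), 185.1 over 3 and up to 4 kb (145.3 to 208.1) and 185.0 over 4 kb (143.5 to 259.9). The 2 upper classes did not differ beyond their intervals. The score per kb had its lowest median, 35.1, in the widest class (interval 29.9 to 55), and 43.9, 41.1 and 52.7 in the classes below it in order of width. These 4 intervals overlap.

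The widest region of the list lay on 3R at 21827784 to 21837281 (FlyBase release 5, as all positions here), was 9498 bp wide and had the highest score, 614.92. The next was on 2R at 14189950 to 14197564, 7615 bp wide, and scored 304.52. On 2L, the peak at 2196247 to 2203766 was 7520 bp wide and scored 225.01. The widest peak of 3L, at 723655 to 729935, was 6281 bp wide and scored 129.13. The next, on 3R at 13525225 to 13531238, was 6014 bp wide and scored 143.49. Both this peak and that of 3L scored above the broad median of 114.9. Their scores per kb, 20.6 on 3L and 23.9 on 3R, were below the lower quartile of broad peaks, 30.9. The remaining 5 of the 10 widest were 4867 to 5397 bp wide and scored 152.91 to 369.53. They lay on 2L (2750585 to 2755981 and 12002935 to 12007839) and on 3L (3244489 to 3249670, 11286434 to 11291612 and 3388122 to 3392988). No gene is named for any of these sites, as the gene table at hand is on another release.

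High scores among the broad peaks occurred at different widths. The second-highest score of the set, 370.51, belonged to a compact peak of 2236 bp on 3L (13469601 to 13471836), with 165.7 per kb, and the third-highest, 369.53, to the 4905 bp peak on 2L named above. The 3 lowest scores belonged to peaks close to the width threshold. They were 22.15 on 3L (9415340 to 9417481, 2142 bp), 27.03 on 2R (6956795 to 6958919, 2125 bp) and 28.74 on 3L (16950192 to 16952241, 2050 bp), with 10.3, 12.7 and 14 per kb.

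Broad peaks were found on the 4 large autosome arms and not on chromosome 4. On 2R, 75 of 2327 peaks were broad (3.22%, interval 2.54 to 4.02), on 3L 70 of 2565 (2.73%, 2.13 to 3.44), on 2L 44 of 1948 (2.26%, 1.65 to 3.02) and on 3R 58 of 2880 (2.01%, 1.53 to 2.6). Neighbours in this order did not differ beyond their intervals, and the intervals of 2R and 3R overlap slightly. With a threshold of 3000 bp the shares of 2R and 3R were 0.688% and 0.521%. In number per Mb the arms had 3.55 (2R), 2.87 (3L), 2.08 (3R) and 1.96 (2L). Chromosome 4 held 0 broad peaks among 10, which allows a share of up to 30% counted as 3 peaks of the total (exact upper limit 30.8%), and its widest peak, at 527455 to 529413, was 1959 bp and scored 87.47.

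The same comparison by bases put 3L beside 2R. Broad peaks held 13.2% of covered bases on 3L, 13% on 2R, 10.3% on 2L and 9.13% on 3R. Members on 3L had the largest median width, 2626.5 bp (interval 2356 to 2861), and the largest median score, 141.2 (103.2 to 169.2). On 2L, 2R and 3R the median widths were 2395.5, 2387 and 2351 bp and the median scores 109.3, 110.1 and 107.7. The intervals of all 4 arms overlap for both quantities.

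The share of broad peaks was 2.54% on the 5 arms (interval 2.24 to 2.87) and 2.51% on X (1.75 to 3.47), which the rule leaves out and where 35 of 1397 peaks were over 2000 bp. The share of covered bases was 11.4% on the 5 arms and 11.7% on X, where the widest peak was 4649 bp. Per Mb the 5 arms had 2.54 broad peaks and X had 1.57. None of the 38 peaks on heterochromatic or unplaced sequences was broad, which allows a share of up to 7.89% by the same count (exact upper limit 9.25%), and the widest of them was 749 bp.

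**Figure D2:**
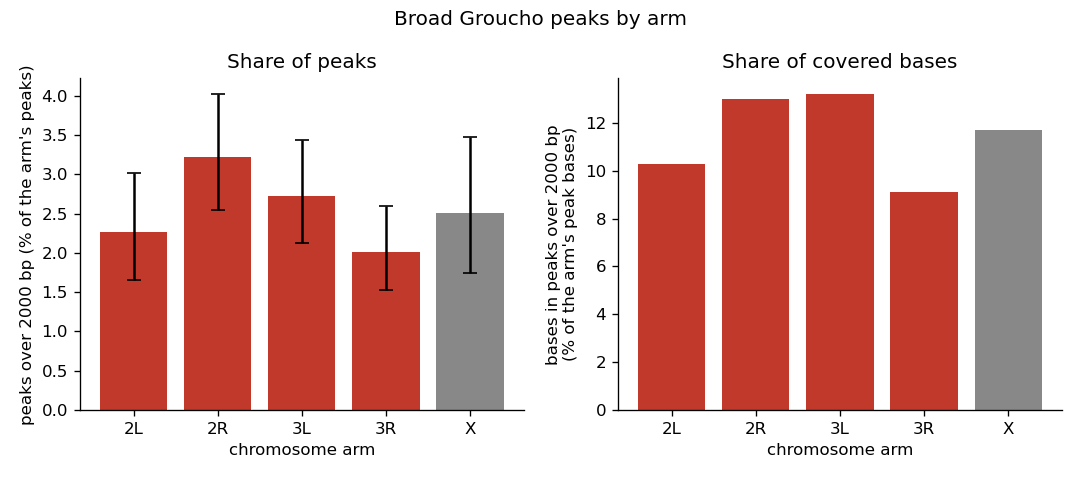
Left, the percentage of each arm's peaks that are over 2000 bp wide, with exact binomial 95% intervals as error bars. Right, the percentage of the arm's covered bases that lie in such peaks. Red bars are the 4 large autosome arms and grey is X. The share of peaks is 3.22% on 2R and 2.01% on 3R, with overlapping intervals, and X has 2.51%. Chromosome 4, with 0 of 10, is not drawn.

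Along the arms, broad peaks were scattered, with a few rich stretches. The median distance between successive broad peaks was 159.0 kb, edge to edge (quartiles 30.7 and 490.6 kb), and the largest was 3032.8 kb. Of 98 fixed windows of 1 Mb on the large arms, 81 held a broad peak and 17 held none. The 17 held 877 peaks in all, and only 9 of them held more than 50. The 12 windows with at least 6 held 90 of the 247. These windows were picked by that number and held 112 to 189 peaks each. Of their peaks, 4.08 to 7.59% were broad, against 2.54% on the 5 arms. The richest, 14000001 to 15000000 on 2R, held 12 broad peaks among 158 peaks (7.59%) and contains the second-widest peak of the list. The window 8000001 to 9000000 on 3L held 10 among 144 peaks (6.94%). The windows 1 to 1000000 on 2L and on 3L held 8 each, among 130 and 189 peaks (6.15% and 4.23%). On 2R, 3000001 to 4000000 held 7 among 158 (4.43%), and other windows held that number too. Of the windows without a broad peak, 3R from 2000001 to 3000000 held the most peaks, 102. It was picked after the values were seen. The median window held 2 broad peaks, so a count of 0 is not far from the usual number.

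The share of broad peaks was higher near telomeres than in the body of the arms, with counting intervals that were only just apart. In the 1 Mb at the telomere end of the 4 large arms, 25 of 552 peaks were broad (4.53%, interval 2.95 to 6.61). In the 1 Mb at the centromere end, 2 of 155 were (1.29%, 0.157 to 4.58), both on 3R, and in the rest of the arms 220 of 9013 (2.44%, 2.13 to 2.78). The telomere-end count came from 8 broad peaks on 2L, 8 on 3L, 6 on 2R and 3 on 3R. The interval of the telomere ends lay just above that of the rest, and that of the centromere ends, with few peaks, held both values. Some broad peaks at telomere ends lay in groups, such as the run of 3 on 2L at 426368 to 442840. Grouped peaks are not independent, so the narrow separation of the intervals does not establish a difference. The first broad peak of 2R began at 2434408, whereas the first narrower peak of that arm began at 371144. The first 2 Mb of 2R held only 31 narrower peaks, too few to show a lack of broad peaks there.

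Broad peaks had more close neighbours than narrower peaks. Neighbours were counted as other peaks with any base within 10 kb of either edge, so the width of the peak itself adds no room for them. Broad peaks had a median of 6 (quartiles 4 and 8) and narrower peaks a median of 4 (quartiles 2 and 6). More than 4 others, the median of all peaks, were found for 160 of 247 broad peaks (64.8%, interval 58.5 to 70.7), against 39.6% of narrower peaks (38.6 to 40.6) and 40.3% of all peaks on these arms. Peaks of 1 to 2 kb were in between, with 51.2% (48.2 to 54.1). The ranges overlap almost fully, with 0 to 15 others for broad and 0 to 16 for narrower peaks.

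The gap to the nearest peak was shorter as well. Its median was 434 bp for broad peaks (interval 379 to 514), 608 bp for peaks of 1 to 2 kb (557 to 676) and 884 bp for all narrower peaks (847 to 922). A peak less than 1 kb away was found for 190 broad peaks (76.9%, interval 71.2 to 82), against 64.5% of peaks of 1 to 2 kb (61.7 to 67.3), 52.9% of narrower and 53.5% of all peaks. Peaks less than 1 kb away on both sides were found for 60 broad peaks (24.3%, 19.1 to 30.1), against 13.2% of narrower and 13.5% of all peaks. The share of peaks of 1 to 2 kb, 18.2% (16 to 20.5), overlaps that of broad peaks in its interval. On the farther side the median gap was 2696 bp for broad and 6258 bp for narrower peaks. The nearer neighbour was on the left, at lower coordinates, for 125 broad peaks and on the right for 122. This order depends on measuring from the edges: between centres, where the peak's own width counts, the median distance was 2304 bp for broad and 1557 bp for narrower peaks. The smallest gap between any peaks of the list was 50 bp.

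Score moved with width, and the number of neighbours was therefore also read among peaks scoring above 100, a choice made after seeing the data. In that range 98 of 144 broad peaks (68.1%, interval 59.8 to 75.6) had more than 4 others within 10 kb, against 264 of 515 narrower peaks (51.3%, 46.9 to 55.7) and 54.9% of both together, and 52% of those of 1 to 2 kb (46.2 to 57.7). The median gap was 436 bp for broad peaks (380 to 532) and 684 bp for narrower peaks (557 to 769). For peaks of 1 to 2 kb in this range it was 574.5 bp (484 to 734), which overlaps the interval of broad peaks. The median scores were still 176.7 for broad and 139.4 for narrower peaks in this range.

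**Figure D3:**
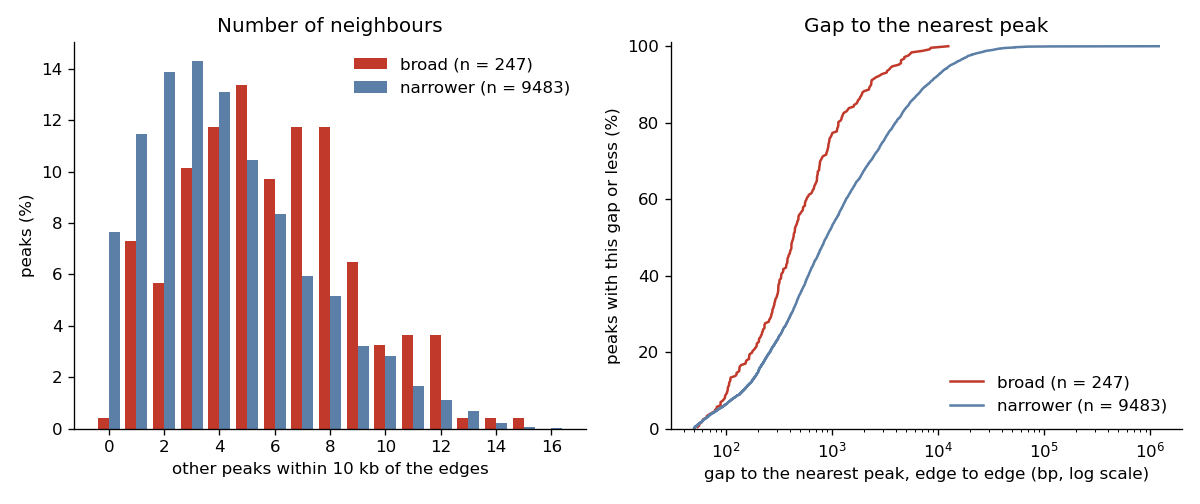
Left, the percentage of peaks with a given number of other peaks within 10 kb of their edges, for the 247 broad (red) and 9483 narrower peaks (blue). Right, the percentage of peaks whose nearest neighbour lies at the given gap in bp or less, on a log axis. The medians are 6 and 4 neighbours and 434 and 884 bp for broad and narrower peaks, and the distributions overlap.

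The flanks of broad peaks were covered by other peaks to a greater extent, most of all in the first 5 kb. From 0.5 to 1 kb beyond the edges, other peaks covered 33.6% of the sequence beside broad peaks, 25.4% beside peaks of 1 to 2 kb and 17.8% beside peaks of up to 1 kb. At 2 to 5 kb the values were 26.2%, 19.3% and 13.8%, and at 10 to 20 kb 15.3%, 12.8% and 10.4%. At 50 to 100 kb they had come close to each other, at 8.39%, 7.98% and 7.51%. The first 0.5 kb had lower values, 15.4%, 11.8% and 8.87%. Flanks of neighbouring broad peaks share sequence, so these percentages have no simple error.

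**Figure D4:**
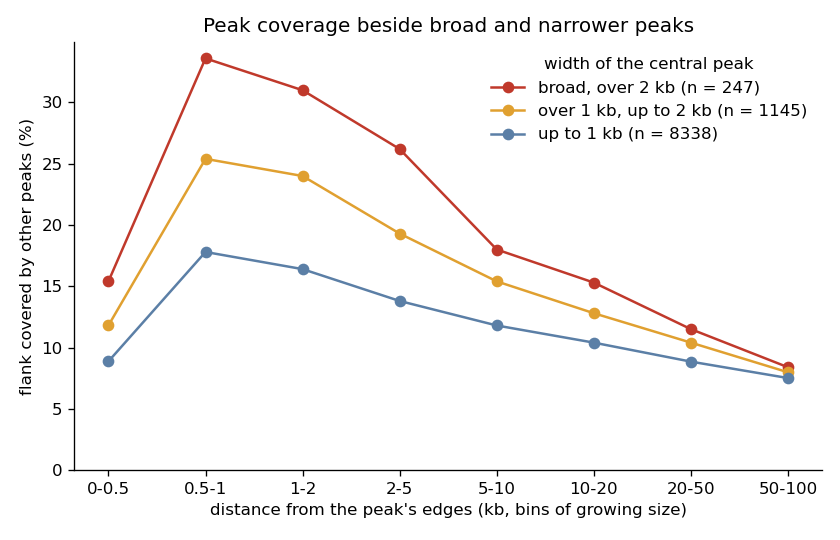
Percentage of flanking sequence covered by other peaks (y axis) against the distance from the edges of the central peak in kb (x axis, bins of growing size), both sides together. Red, orange and blue lines are central peaks over 2 kb, of 1 to 2 kb and of up to 1 kb. The red line is highest in each bin, from 33.6% at 0.5 to 1 kb down to 8.39% at 50 to 100 kb.

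The peak next to a broad peak was usually a narrow one. The nearest neighbour had a median width of 582 bp (interval 516 to 686) and a median score of 21.4 (18.4 to 25.4), against 466 bp (457 to 474) and 18.4 (18 to 18.7) for the nearest neighbours of narrower peaks. Between these sets the intervals of the median widths are apart, whereas those of the median scores overlap. The upper quartiles of the neighbour's score were 63.8 for broad and 37.4 for narrower peaks. The nearest neighbour was over 1 kb wide for 27.9% of broad and 14.7% of narrower peaks. The nearest neighbour was itself broad for 26 broad peaks (10.5%) and for 2.47% of narrower peaks. The nearest neighbours of peaks of 1 to 2 kb had a median width of 510 bp (479 to 545), which overlaps the interval for broad peaks. The peak scored above its nearest neighbour for 221 of the 247 broad peaks (89.5%, 85 to 93), for 80.8% of peaks of 1 to 2 kb (78.4 to 83), for 47.9% of narrower peaks and for 48.9% of all. The median ratio of the 2 scores was 4.93 for broad peaks, 2.74 for peaks of 1 to 2 kb and 0.959 for all narrower peaks. Among peaks with a neighbour within 10 kb, 141 of 246 broad peaks (57.3%, interval 50.9 to 63.6) had the highest score of that neighbourhood, against 21.6% of narrower peaks and 22.6% of all. Of peaks of 1 to 2 kb, 49.1% did (46.1 to 52.1). Width chose the broad peaks and score moved with width, so these comparisons of score are not independent of the rule.

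The surroundings of the widest peaks varied. The 9498 bp peak on 3R had a peak of 538 bp with a score of 12.9 at 402 bp on its left and a peak of 743 bp with a score of 59.8 at 578 bp on its right. Within 25 kb of its edges 14 others covered 32.8% of the sequence. The 7615 bp peak on 2R was followed at 756 bp by another broad peak, 2717 bp wide with a score of 164.5, while its left side was free of peaks for 9062 bp. The 7520 bp peak on 2L had the opposite form, with a neighbour at 1267 bp on the left and none for 12140 bp on the right. The 6014 bp peak on 3R had a peak at 282 bp on the right and a free stretch of 17139 bp on the left. Within 25 kb of their edges, the 10 widest peaks had 9 to 20 others, which covered 8.89 to 37.2% of the flanks. The nearest peak was broad for the 7615 bp peak and for the 4867 bp peak on 3L, and narrower for the rest of the 10. The peaks of 6281, 6014 and 4867 bp scored 129.13, 143.49 and 152.91. Each was below the highest other score within 25 kb, which was 241.4, 251.9 and 248.4 in the same order. The rest of the 10 scored above all others that near.

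**Figure D5:**
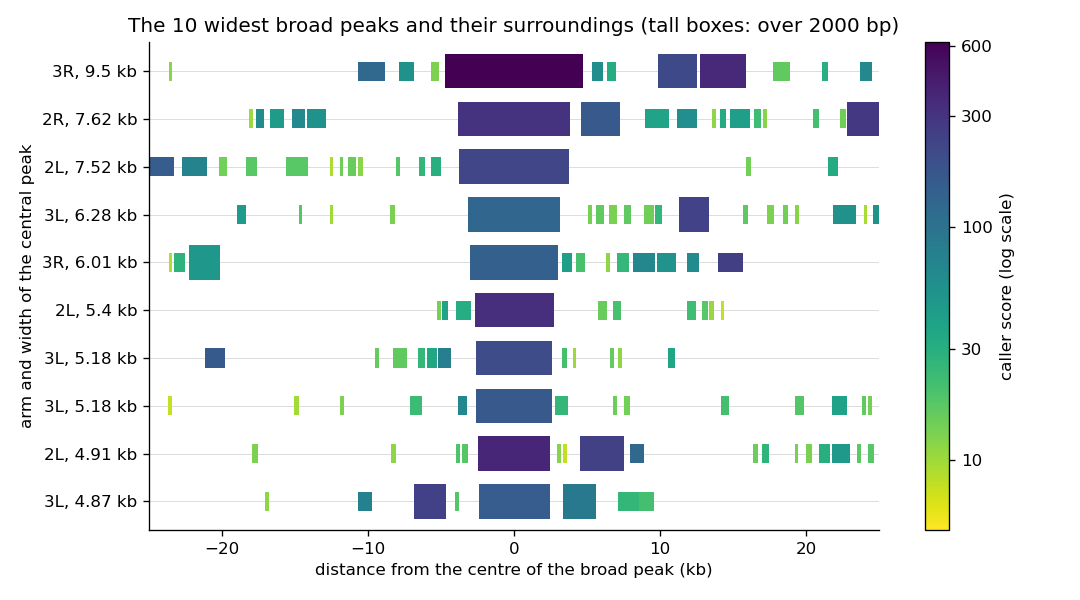
Each row is the surroundings of a broad peak, the 10 widest from top to bottom, drawn to scale as distance from the centre of the peak in kb. Boxes are called peaks, tall ones over 2000 bp, and colour gives the caller score on a log scale. The top row is the 9498 bp peak on 3R with further broad peaks to its right. The 7520 bp peak on 2L and the 6014 bp peak on 3R have peaks close by on 1 side.

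A solitary broad peak was rare. Of the 247, 1 had no other peak within 10 kb (0.405%, interval 0.0102 to 2.23), against 724 of 9483 narrower peaks (7.63%, 7.11 to 8.19), 4.02% of those of 1 to 2 kb (2.96 to 5.32) and 7.45% of all peaks. It lay on 3R at 9350537 to 9353096, was 2560 bp wide and scored 77.44, and its nearest peak was 12458 bp away. At the other extreme, a 4523 bp peak on 3L (17963722 to 17968244, score 234.33) had 15 others within 10 kb, the most of any broad peak, at gaps of 82 and 242 bp on its sides. It was named after its value was seen.

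Most broad peaks, 173 of 247, had no other broad peak within 10 kb, but a broad peak was that near more often than for narrower peaks. Another broad peak was within 10 kb of 74 of the 247 (30%, interval 24.3 to 36.1), whereas 12% of narrower peaks (11.4 to 12.7), 19.5% of peaks of 1 to 2 kb (17.2 to 21.9) and 12.5% of all peaks had a broad peak that near. Broad peaks had more neighbours of any width, with a mean of 5.89 against 4.21 for narrower peaks. Both members of a pair count among the 74. The part of these points in the difference was not tested. The 74 formed 25 pairs and 8 runs of 3, and no run was longer. Of the 41 successive gaps inside them, 18 were under 1 kb and 20 had no peak in between. The closest pair was on 3R, 3274 and 2284 bp wide (4878291 to 4881564 and 4881631 to 4883914), 66 bp apart, with scores of 244.0 and 145.3. The next pairs had gaps of 110 bp on 2R (4535977 to 4538522 and 4538633 to 4540840), 231 bp on 3R (21842400 to 21845054 and 21845286 to 21848383), 280 bp on 2R (14216568 to 14218943 and 14219224 to 14221784) and 286 bp on 3L (8813666 to 8816507 and 8816794 to 8819562).

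In the 8 runs of 3 broad peaks, called peaks covered 60.1 to 94% of the span. On 2R, a run from 4535977 to 4544257 spanned 8.28 kb, of which peaks covered 94%, with scores of 90 to 342.4. Its first member had 14 others within 10 kb. Also on 2R, runs from 14686615 to 14695172 (8.56 kb), 14216568 to 14227231 (10.7 kb) and 17429313 to 17441961 (12.6 kb) were covered to 91.4%, 89.8% and 75.5%. The run on 3R, 21827784 to 21848383, began with the widest peak, spanned 20.6 kb and was covered to 80.8%, and its lowest score was 212.3. The runs on 3L lay at 3383721 to 3396133 (12.4 kb, 76.6% covered) and 8648713 to 8670487 (21.8 kb, 60.1%), and the run on 2L at 426368 to 442840 (16.5 kb, 62.4%). The run on 2L had the lowest top score of the 8, 100.5.

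Broad peaks made up a larger share of long chains of peaks than of short ones. With peaks less than 5 kb apart put into the same chain, 7 of 1532 single peaks were broad (0.457%, interval 0.184 to 0.939). The share was 1.7% in chains of 2 and also in chains of 3 to 4 peaks, 3.6% in chains of 5 to 9 (2.93 to 4.37), 3.73% in chains of 10 to 19 (2.78 to 4.89) and 5.73% in chains of 20 or more (3.93 to 8.04). The last 3 intervals overlap. Chains of 10 or more peaks held 81 of the 247 broad peaks (32.8%, 27 to 39), against 19% of narrower peaks (18.2 to 19.8) and 19.3% of all. They held 26.7% of peaks of 1 to 2 kb (24.2 to 29.4), which overlaps the interval of broad peaks. Of the 123 such chains on the 5 arms, 52 held a broad peak (42.3%). A longer chain has more peaks that could be broad, which the share per peak takes into account and the share of chains does not.

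Within a chain, broad peaks had the top score more often than narrower peaks as a whole, and peaks of 1 to 2 kb came close to them. In chains of 3 or more peaks, 56 of 215 broad peaks were the first or last of the chain (26%, interval 20.3 to 32.5), against 35.6% of narrower peaks (34.4 to 36.7) and 35.3% of all. Peaks of 1 to 2 kb, with 30.6% (27.6 to 33.7), did not differ from broad peaks beyond the intervals. The broad peak had the highest score of its chain in 110 of 215 cases (51.2%, 44.3 to 58), against 16.6% of narrower peaks and 17.7% of all. Of peaks of 1 to 2 kb 41.2% did (37.9 to 44.4), an interval that just meets that of broad peaks. Width chose the members and score moved with width, so the share of top scores is not independent of the rule. Broad peaks were the widest of their chain in 76.7% of cases, against 15.7% for narrower peaks and 48.4% for peaks of 1 to 2 kb. Broad peaks lie in longer chains, where a smaller part of the peaks can be first or last. The part of chain length in the shares of end peaks and of top scores was not tested.

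The number of wide regions depended on whether nearby peaks were joined. Joined regions include the uncalled sequence between their peaks, and whether they are single bound regions was not tested. When peaks less than 1 kb apart were joined, the 9730 peaks became 6467 regions, of which 1021 were wider than 2000 bp. Only 220 of these contained a broad peak, and 801 were made of narrower peaks alone. The regions with a broad peak had a median width of 4266.5 bp and a median top score of 128.7, and the 801 others had 2825 bp and 57.5. Of the broad peaks, 190 were joined to at least 1 other peak and 57 stayed as they were. The widest joined region, on 3L at 17954713 to 17973051, was 18339 bp long and was made of 14 peaks, 2 of them broad.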

How the data were processed

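All libraries are represented by a single deposited peak list. Per the file headers it is on FlyBase release 5, and its source column names MACS. The submitters' processing notes also name BWA, MACS2, the build BDGP5 and CASAVA 1.7.0.2 and 1.7.0.3. For the peak threshold, the read filters and any pooling of libraries, the answer is not given in the sources used here. Peak scores are as the authors deposited them, on a scale that is not stated, and were used only within this list. Peak positions, from which widths were computed, are 1-based as deposited. A caller that fuses or divides regions would change widths, gaps and numbers together.

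Libraries were grouped by title. Positions were read per arm, and arm length ran up to the last peak. Broad peaks, lists and settings were chosen with earlier results of these data known. Named sites follow fixed ranks: the 10 widest peaks, the widest per arm, the 3 highest and lowest scores, the 5 on either side of the threshold, the 5 closest pairs, runs of 3, solitary peaks and the 5 richest windows of 1 Mb. The widest peak of chromosome 4, the richest window without a broad peak and the widest joined region were added after the values were seen. No test was run. The gene table at hand is on release 6, so genes, motifs and sequences were not analysed here. Counting of neighbours and gaps was tested on a simulated list. Python 3.11.15, numpy 2.4.6, scipy 1.17.1, pandas 2.3.3 and matplotlib 3.10.9 were used.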

Additional observations from a re-analysis of the deposited data

How the results depend on the processing

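Of 45 alternatives, 25 stayed within the counting interval of the reported value (or within 1.5 times a count), 19 moved beyond it and 1 reversed. The number of broad peaks was 564 over 1500 bp, 65 over 3000 bp and 1021 after joining peaks less than 1 kb apart. Their share of covered bases was 20.4% over 1500 bp, 4.3% over 3000 bp and 16.1% with only the upper 50% of scores kept. After joining it was 51%, but there the uncalled sequence inside joined regions counts as covered, so this value is not on the same footing. These move by construction. For more neighbours than the median, broad minus narrower peaks came to 25.2 percentage points as reported. It was 33.8 over 3000 bp, 13.7 after joining, 18.4 with the highest scores, 17.7 within 50 kb, 13.6 against peaks of 1 to 2 kb and 16.8 above a score of 100. The difference in median gap (-450 bp) was -1024.5 bp after joining, -1157 bp with the highest scores, -174 bp against peaks of 1 to 2 kb and -248 bp above a score of 100. Between centres it reversed to 747 bp, since that distance includes the peaks' own widths. The excess of broad neighbours within 10 kb (17.9 points) was 5.13 over 3000 bp, and the difference between 2R and 3R (1.21 points) was 0.167. Over 3000 bp there were 65 peaks on all 5 arms, and 2R and 3R hold only a part of them. The cause of shifts that do not follow by construction was not tested. Width and score of the nearest neighbour and the share of broad peaks that lie at either arm end stayed within their intervals. The share of broad peaks at telomere ends minus that of the rest (2.09 points) was 1.53 with ends of 2 Mb, a setting added after seeing the data, as was the score above 100. Arm lengths from another source were not run. No paired analysis was possible because the list holds no value per library, and leaving out a replicate was not possible for that reason. With read depth unknown, a gap between peaks shows only that nothing was called there.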
